A study of Mus musculus with 6 samples.

Results

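Nucleoporins are the proteins that build the nuclear pore complex, the channel through the nuclear envelope that carries proteins and RNA between nucleus and cytoplasm. Their transcripts were followed here in ileal epithelial cells of control mice and of mice with Ogt deleted through a stem cell driver. Members were the rows of the gene table whose mouse symbol has the form Nup followed by a number, together with Tpr, Pom121, Ndc1, Aaas, Rae1, Nupl1, Nupl2, Ahctf1 and Ranbp2. The rule gave 32 of the 22274 rows, 30 by annotated symbol and 2 by the symbol in the deposited table alone. The latter were the row used as Nup58, which the annotation names Gm49336, and the row Gm28038. Of these, 28 had enough counts to be tested. The rule used names and no measured value, but the members were chosen with earlier results of these data known.

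The control group carried floxed Ogt alleles and no Cre driver is named for it. The Ogt knockout group combined floxed Ogt with Olfm4-CreER, a recombinase activated by tamoxifen and driven from a gene of crypt stem cells. According to the protocol, the offspring of this cross were given tamoxifen on 3 days in a row at 2 months of age, and tissue was taken on day 10. Each group had 3 libraries, and no label ties a library to an animal of its own, so the p-values describe spread among libraries that may be technical. Effects of the driver and of losing Ogt cannot be told apart.

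O-GlcNAc transferase, the product of Ogt, places single sugar residues on serines and threonines of nuclear and cytoplasmic proteins. Nucleoporins are among its best known substrates, above all those with repeats of phenylalanine and glycine (FG repeats), which line the channel and bind transport receptors. The pore has a symmetric scaffold made of the Y complex and the inner ring, an anchor in the membrane, a central channel, filaments and export factors on the cytoplasmic face, and a basket on the nuclear face. Sequencing measured transcripts only. Neither the sugar on the proteins nor pore number was measured.

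Total counts ranged from 14389435 to 18076484 per library, and 3 counts correspond to 0.159 to 0.207 CPM, the unit of counts scaled to the library total and TMM factor. Ogt transcripts were 140.0, 127.2 and 127.9 CPM in the control libraries and 48.5, 43.0 and 36.0 CPM in the knockout libraries, so transcripts remained although the protocol describes an epithelium without Ogt. Ogt fell by 1.63 on the log2 scale (SE 0.128, edgeR quasi-likelihood test, adjusted p = 0.001211). Oga, which encodes the enzyme that removes the sugar, fell by 1.47 (SE 0.143, adjusted p = 0.001621). The 9 epithelial markers were all detected, and 1 of them, the intestinal transcription factor Cdx2, was lower (not called without control 3, knockout 2 or knockout 3). Markers of other cells were also present. Summed over 10 immune markers the libraries held between 714.4 and 2099 CPM, and no marker list had a gene at 0 in every library. Control 2 stood apart in 8 Paneth cell markers, with a sum of 234.8 CPM against 2479 and 2220 CPM in the other control libraries and 1229 to 3212 CPM in the knockout libraries.

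For 3 members, Nup133, Nup54 and Nup50, the call held under every alternative setting tried. The 250 bases before their RefSeq transcript starts are shown because these genes carry the firmest differences. They come from the GRCm38.p6 tables and read in the direction of the gene. RefSeq windows were found for 26 of the 30 members looked up. Motifs searched on both strands were the E-box CACGTG, the NRF1 core GCATGCGC, the Ets motif CCGGAAG, the E2F motif TTTCCCGC, the GC box GGGCGG and, added after the windows had been read, the cyclic AMP response element TGACGTCA. Capitals mark matches to any of these.
Nup133: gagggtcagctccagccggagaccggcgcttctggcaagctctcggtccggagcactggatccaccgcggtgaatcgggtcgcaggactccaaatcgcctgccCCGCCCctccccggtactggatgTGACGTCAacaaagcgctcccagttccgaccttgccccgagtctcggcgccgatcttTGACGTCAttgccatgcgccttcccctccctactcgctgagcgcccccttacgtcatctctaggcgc
Nup54: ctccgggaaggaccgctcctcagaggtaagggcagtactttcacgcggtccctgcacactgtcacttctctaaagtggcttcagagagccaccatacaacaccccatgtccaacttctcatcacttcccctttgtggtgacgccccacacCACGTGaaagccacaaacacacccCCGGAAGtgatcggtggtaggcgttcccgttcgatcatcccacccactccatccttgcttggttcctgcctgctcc
Nup50: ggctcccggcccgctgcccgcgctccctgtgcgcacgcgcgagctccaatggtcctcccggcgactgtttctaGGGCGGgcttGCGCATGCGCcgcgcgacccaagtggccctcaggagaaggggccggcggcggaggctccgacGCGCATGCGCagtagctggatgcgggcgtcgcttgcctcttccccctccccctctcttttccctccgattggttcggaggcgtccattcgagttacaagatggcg
The Nup133 window is chr8:123949266-123949515 on the minus strand and holds 2 matches to the cyclic AMP element and 1 GC box. The Nup54 window, chr5:92435200-92435449 on the minus strand, holds 1 E-box and 1 Ets match. The Nup50 window, chr15:84923178-84923427 on the plus strand, holds 4 NRF1 core matches when both strands are counted, which overlap in a pair of palindromic runs, and 1 GC box.

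The 3 windows shared no motif in all of them. Over the 26 members with a window, the GC box was found in 15, compared with 32.9% of the 27025 promoters in the table. Those promoters belong to all genes with a window, tested here or not, so they are not a like set. For them only the first window of a gene was read, and for members every window. The Ets motif was found in 5 members (7.05% of all promoters), the E-box in 4 (6.05%), the NRF1 core in 3 (2.32%), the cyclic AMP element in 2 (1.62%) and the E2F motif in 1 (0.929%). Among the 9 members that were higher in the knockout, 5 had a GC box, 2 each an E-box, an Ets match and an NRF1 core, and 1 the cyclic AMP element. A match describes letters in the window and not binding.

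In the knockout libraries 9 of the 28 tested nucleoporins were higher and 0 were lower (edgeR quasi-likelihood test, adjusted p under 0.05 over 14005 genes). The share of all tested genes called higher was 9.33%, the share called lower was 9.37% and the share called in either direction was 18.7%. Thus 32.1% of the tested nucleoporins were called, all in 1 direction. The limma voom and DESeq2 tests also called 0 lower, and 1 member was lower at an unadjusted p under 0.05. The fitted log2 fold change was positive for 23 members and negative for 5, with a median of 0.33 against -0.05 for all tested genes, and it ran from -0.83 to 1.21. Knockout values lay above all control values without overlap for 14 members (50%), where 19.6% of all tested genes did so, and below them for 1 member, where 20.2% of all tested genes did so. Summed over the 32 rows, nucleoporin transcripts were 947.9, 796.6 and 900.9 CPM in control and 1066, 1057 and 1131 CPM in knockout. In bulk samples, fewer cells of a type and less RNA per cell cannot be told apart. With library size alone as scaling, 14.6% of all genes were called higher and 6.13% lower, and 12 nucleoporins were higher. The count depended on single libraries. It was 15 without control 1, 4 without control 2, 3 without control 3, and 6, 5 and 3 without knockout 1, 2 and 3. In these fits 13.6%, 6.36%, 4.5%, 5.31%, 4.23% and 3.87% of all genes were called higher, in the same order.

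**Figure D1:**
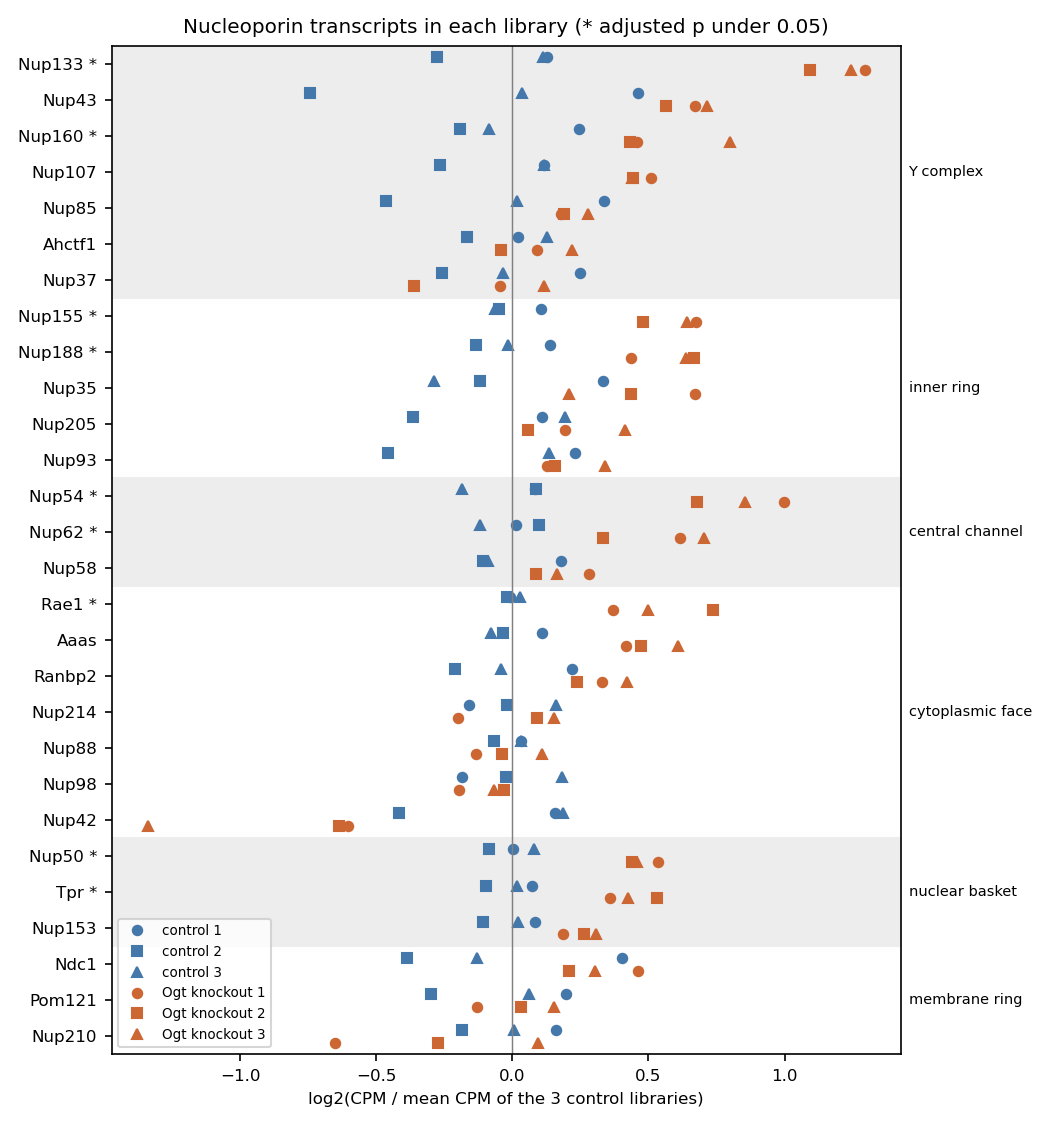
Level of each tested nucleoporin in each library, as log2 of its CPM over the mean of the 3 control libraries, grouped by place in the pore. Blue marks are control libraries, orange marks are Ogt knockout libraries, and an asterisk marks an adjusted p under 0.05. The 9 marked genes have all knockout libraries to the right of all controls, and Nup42 is the only gene of the 28 with all of them to the left.

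The Y complex forms the outer scaffold rings and also acts at kinetochores in mitosis. Of its 7 members under the naming rule, which leaves out the subunits Sec13 and Seh1l, 2 were higher, and the median log2 fold change was 0.46. Nup133, at the stem end of the complex, had the largest difference of the 28 tested members. It was at 10.3, 7.82 and 10.2 CPM in control and 23.2, 20.2 and 22.4 CPM in knockout. The groups were far apart, the knockout being 2.32-fold higher (log2 1.21, SE 0.157, adjusted p = 0.003267). Nup160, which forms an arm of the Y, was at 25.7, 19.0 and 20.4 CPM in control and 29.8, 29.3 and 37.7 CPM in knockout. Its groups did not overlap, but control 1 came close to the lower knockout libraries, and the log2 difference of 0.57 (SE 0.163) had an adjusted p of 0.04446. That call was lost without any 1 of 5 libraries (all but control 1), with an adjusted p of up to 0.1535, and with upper quartile scaling and the unfiltered FPKM fit (up to 0.06163).

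The other 5 of these 7 did not pass, while Sec13, read with the other pore genes, was higher. Nup107, the partner that binds Nup133, had a log2 difference of 0.46 (adjusted p = 0.06432), with knockout above control in all libraries. Nup43, a small propeller subunit, was at 6.57, 2.85 and 4.88 CPM in control and 7.60, 7.05 and 7.82 CPM in knockout (log2 0.65, adjusted p = 0.1626). Its groups did not overlap, and control 2 was the lowest library. Ahctf1, also called ELYS, which recruits the complex to chromatin when pores reassemble after mitosis, is the most abundant of the 7 by FPKM (fragments per length of transcript, scaled to the library total). It was at 58.0, 51.0 and 62.5 CPM in control and 60.8, 55.6 and 66.6 CPM in knockout, and the groups overlapped (log2 0.09, adjusted p = 0.6071). Nup85 (0.22) and Nup37 (-0.08) overlapped as well. On the FPKM scale, which allows genes to be compared, Ahctf1 was the highest and Nup133 the lowest of the 7 in every library. The ratio between them was 5.05, 6.81 and 4.57 in control and 2.11, 2.11 and 2.18 in knockout. For Ahctf1 the count divided by FPKM differed up to 1.43-fold between libraries, and its part in these ratios was not tested.

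The inner ring joins the scaffold to the membrane and to the channel. It had 5 tested members, 2 of them higher, with a median log2 fold change of 0.45. Nup155 links ring and membrane and was at 16.4, 14.7 and 14.6 CPM in control and 24.3, 21.3 and 23.7 CPM in knockout, so the groups were clearly separate (log2 0.60, SE 0.126, adjusted p = 0.01606). Its call was lost without control 3, knockout 1 or knockout 3 (adjusted p up to 0.06597). Nup188, a large scaffold protein, was at 14.5, 12.1 and 13.1 CPM in control and 17.9, 20.99 and 20.6 CPM in knockout (log2 0.58, SE 0.139, adjusted p = 0.02468). These groups did not overlap either. The call was lost without control 2, control 3, knockout 2 or knockout 3 (adjusted p up to 0.09061). Nup35, a membrane-binding subunit and the most abundant of the ring by FPKM, was at 14.0, 10.2 and 9.12 CPM in control and 17.7, 15.1 and 12.9 CPM in knockout. Knockout 3 fell below control 1, and the test was not passed (log2 0.45, adjusted p = 0.1636). Nup205 (0.23) and Nup93 (0.21) overlapped between groups.

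The central channel is built by Nup62, Nup54 and Nup58, which form a coiled trimer whose FG repeats fill the passage. Nup54 was at 14.3, 14.36 and 11.9 CPM in control and 27.0, 21.6 and 24.4 CPM in knockout. All knockout libraries were well above control, by 1.8-fold (log2 0.85, SE 0.146, adjusted p = 0.008136). Nup62, a classic O-GlcNAc carrier, was at 16.6, 17.6 and 15.2 CPM in control and 25.2, 20.8 and 26.8 CPM in knockout (log2 0.56, SE 0.143, adjusted p = 0.03105). Knockout 2 was the nearest to control, and the call was lost without control 2, control 3, knockout 1 or knockout 3 (adjusted p up to 0.1175). Nup58, the most abundant of the trimer by FPKM, was at 63.1, 51.8 and 52.5 CPM in control and 67.8, 59.2 and 62.5 CPM in knockout. Those groups overlapped (log2 0.18, adjusted p = 0.3060). On the FPKM scale the highest of the 3 was Nup58 in every library, at 2.68, 2.19 and 2.72 times the lowest in control and 1.797, 1.88 and 1.57 times in knockout.

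The nuclear basket reaches into the nucleoplasm, and 2 of its 3 members were higher, with knockout above control without overlap in all 3. Tpr, the coiled-coil filament of the basket, had the highest FPKM of all nucleoporins. It was at 100.9, 89.7 and 97.0 CPM in control and 122.8, 138.6 and 128.8 CPM in knockout, without overlap (log2 0.44, SE 0.1, adjusted p = 0.02113). The call was lost without control 2, control 3, knockout 2 or knockout 3 (adjusted p up to 0.08233), and it was not made from the FPKM values under any of 4 settings (adjusted p up to 0.1594). Nup50, an FG protein that helps release imported cargo, was at 75.9, 71.3 and 80.04 CPM in control and 109.6, 102.6 and 104.0 CPM in knockout. The spread within each group was small beside the gap (log2 0.48, SE 0.093, adjusted p = 0.01298). Nup153, an FG protein that anchors the basket, had a smaller difference (log2 0.25, adjusted p = 0.1044).

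The cytoplasmic face had 7 tested members, several of which also occur elsewhere in the pore, and a median log2 fold change of 0.02. Rae1, an mRNA export factor that binds Nup98 and also acts on the mitotic spindle, was the 1 member higher. It was at 20.3, 20.2 and 20.9 CPM in control and 26.5, 34.1 and 28.9 CPM in knockout. Control libraries were nearly equal and all knockout libraries lay above them (log2 0.54, SE 0.131, adjusted p = 0.02563). Without control 2, control 3, knockout 2 or knockout 3 the call was lost (adjusted p up to 0.08886). Aaas, the protein affected in triple A syndrome, had a log2 difference of 0.50 with knockout above control in all libraries, and the test was not passed (adjusted p = 0.06241). Ranbp2, the giant FG protein of the filaments, was at 144.2, 107.1 and 120.2 CPM in control and 155.6, 145.8 and 165.9 CPM in knockout. The groups were just separate and the test was not passed (log2 0.33, adjusted p = 0.1159).

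Nup88, which holds Nup214 at the pore, had the highest FPKM of the cytoplasmic face averaged over all 6 libraries and in each control library, while Ranbp2 led in knockout 1 and Rae1 in knockout 2. Nup88 was at 41.3, 38.6 and 41.3 CPM in control and 36.8, 39.4 and 43.6 CPM in knockout. Its groups overlapped completely (log2 -0.02, adjusted p = 0.9303). Nup214 (log2 0.02) and Nup98 (log2 -0.10), FG proteins known from leukaemia fusions, overlapped too. Nup42, an FG protein that works with Gle1 in mRNA export, went the other way. It was at 4.32, 2.91 and 4.41 CPM in control and 2.56, 2.50 and 1.53 CPM in knockout. All knockout values were below all control values, but the spread was wide and the test was not passed (log2 -0.83, SE 0.308, adjusted p = 0.09988). By FPKM it was the lowest of this face in every library, and the highest member exceeded it 9.61, 11.9 and 9.87 times in control and 16.8, 21.6 and 28.6 times in knockout. For Nup42 the count divided by FPKM differed up to 1.24-fold between libraries, and its part in these ratios was not tested.

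The membrane ring anchors the pore in the envelope, and 0 of its 3 tested members passed in either direction by edgeR, DESeq2 or limma voom, or at an unadjusted p under 0.05. Pom121, an FG protein and the most abundant of the ring by FPKM, was at 34.2, 24.2 and 31.1 CPM in control and 27.3, 30.5 and 33.2 CPM in knockout, with full overlap (log2 0.02, adjusted p = 0.9276). All 6 of its estimated counts were fractional, as happens when reads are shared with similar genes. Ndc1 (0.33) and Nup210 (-0.24) overlapped between groups.

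Of 4 rows too low to test, the row Gm28038, named Nup188 in the deposited table, had 0 counts in all libraries. The testis paralog row Nup210l had 9, 4 and 6 counts in control and 5, 8 and 11 in knockout. Nup62cl had 3, 0 and 1 counts in control and 0, 1 and 0 in knockout. Nupl1, which overlaps the Nup58 row, had 0 counts in each control library and 3, 3 and 5 in the knockout libraries. The estimated counts of Nupl1 and Nup58 were each not whole in 3 libraries, so reads may have been split between them and both are uncertain.

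**Figure D2:**
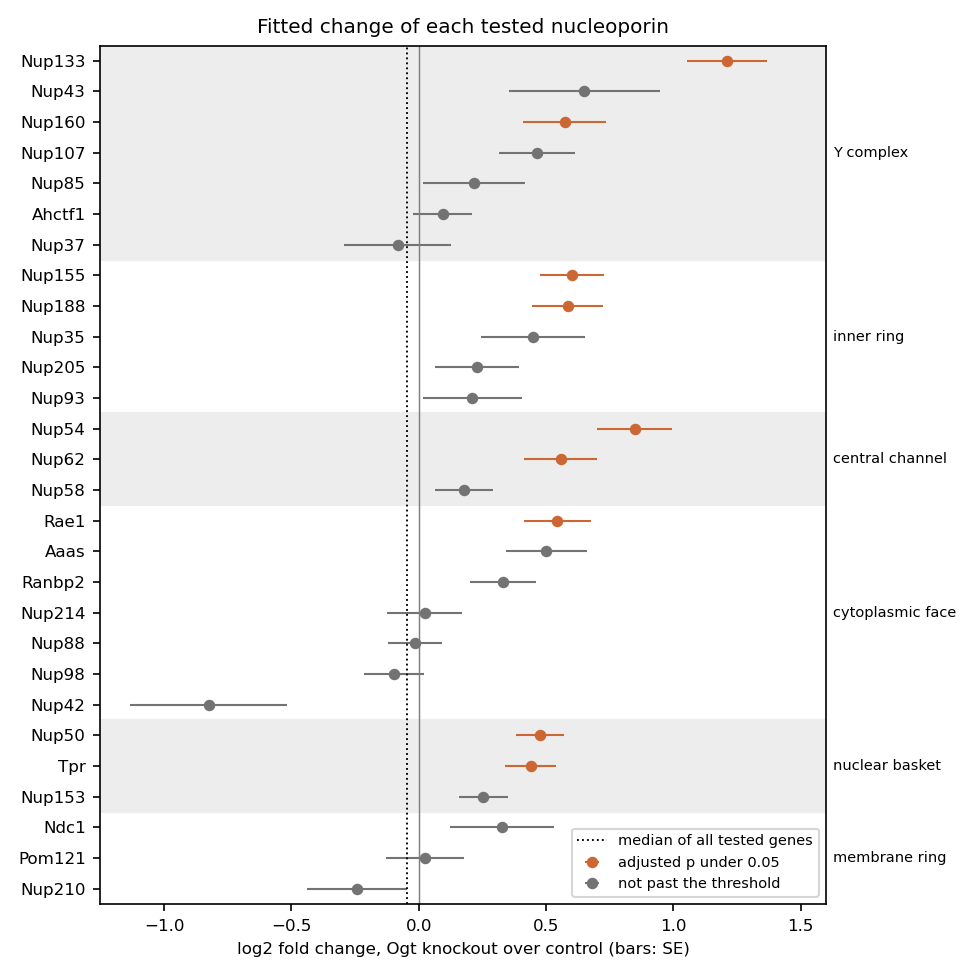
Fitted log2 fold change of Ogt knockout over control for the 28 tested nucleoporins, by place in the pore, with bars of 1 SE. Orange points passed an adjusted p of 0.05 and the dotted line is the median of all tested genes, -0.05. All tested members of the inner ring, channel and basket lie to the right of it. Those of the Y complex, cytoplasmic face and membrane ring lie on both sides, with more of each to the right.

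FG proteins are the members best known for carrying O-GlcNAc. Of the 10 FG members 3 were higher (Nup54, Nup62 and Nup50), with a median log2 fold change of 0.22. Of the 18 tested members without FG repeats 6 were higher, with a median of 0.45. The FG list was written after the values had been seen, and the difference between both lists was not tested.

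By FPKM the order of the most abundant members was similar in both groups. Tpr was first, at 25.3 ± 5.46 (SD, n = 3) in control and 34.3 ± 4.94 in knockout, followed in control by Nup88 (16.1 ± 0.848), Nup50 (15.5 ± 1.28), Nup58 (13.8 ± 1.85), Ranbp2 (12.3 ± 2.15) and Rae1 (11.4 ± 0.0777). The neighbours from Nup88 to Rae1 in this order differed by less than the sum of their SDs. In knockout Nup50 (23.4 ± 0.921) came after Tpr and was followed by Rae1 (18.4 ± 2.72). Nup54 moved from rank 15 in control to rank 8 in knockout. The lowest in control were Nup42 (1.55) and Nup133 (1.56), and in knockout Nup42 (0.88) was lowest while Nup133 reached 3.96.

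**Figure D3:**
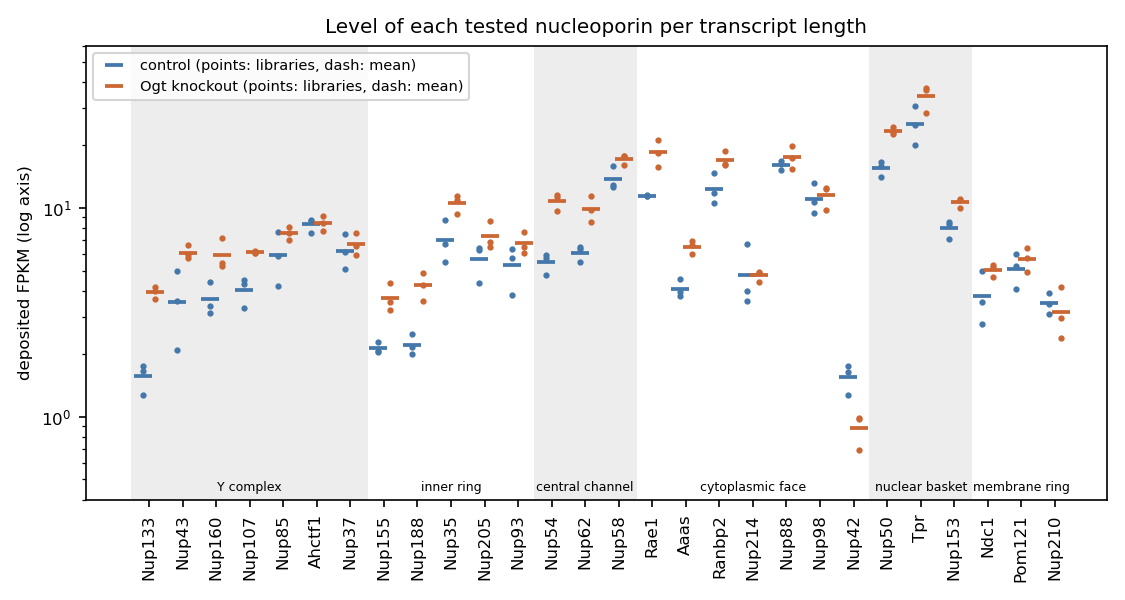
Deposited FPKM of the 28 tested nucleoporins on a log axis, by place in the pore. Points are libraries and dashes are group means, blue for control and orange for Ogt knockout. Tpr is the highest in both groups, and Nup133 rises from a mean of 1.56 to 3.96 while Nup42 goes from 1.55 to 0.88.

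The estimated count divided by FPKM is proportional to the transcript length used by the authors' quantification. For most nucleoporins it was nearly the same in every library, with a median of the highest over the lowest of 1.05 compared with 1.03 for 11460 genes. For 7 of the 28 it differed more than 1.2-fold between libraries. The ratio reached 1.74 for Nup214, 1.52 for Tpr, 1.43 for Ahctf1, 1.31 for Nup155, 1.25 for Nup188, 1.24 for Nup42 and 1.203 for Aaas. Relative to its mean, the implied length of Nup188 was 1.08 in each control library and 0.946, 0.978 and 0.861 in the knockout libraries, so the groups did not overlap. For the other 6 the groups overlapped. Nup188 averaged 2.21 FPKM in control and 4.25 in knockout, a larger ratio than its 1.5-fold difference in CPM. Genes of constant implied length also differed more by FPKM. Nup133, with a highest over lowest of 1.004, averaged 1.56 and 3.96 FPKM beside its 2.32-fold difference in CPM. CPM also carries the TMM factor, which was 0.9407 to 0.9794 in control and 1.006 to 1.087 in knockout. FPKM, scaled to the library total, does not. The part of the implied length and of this factor in the differences was not tested.

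**Figure D4:**
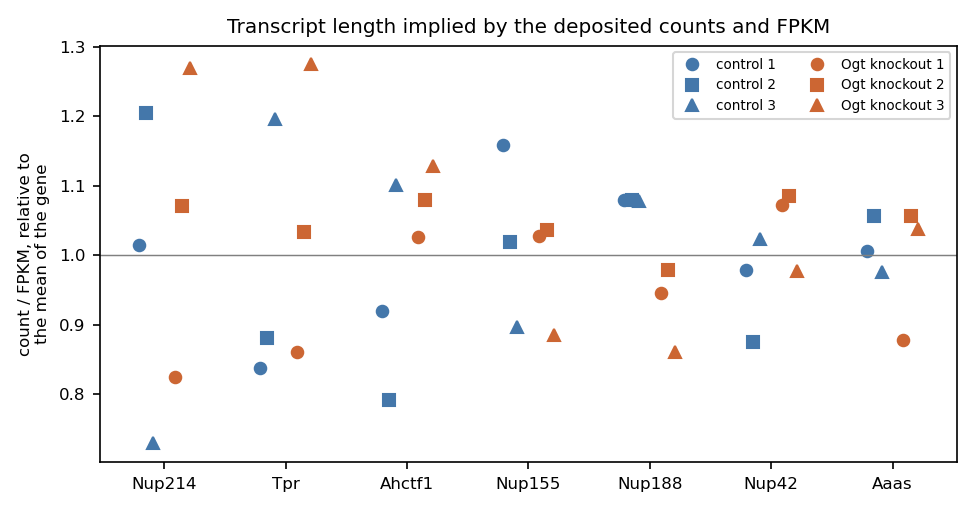
Estimated count divided by FPKM, relative to the mean of the gene over the 6 libraries, for the 7 nucleoporins where it varied most. Blue marks are control and orange marks Ogt knockout libraries. For Nup188 all controls lie at 1.08 and all knockouts below 1, and for Nup214 and Tpr libraries of both groups lie high and low.

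Control libraries differed along the same line for most members. Control 2 was the lowest control for 21 of the 28 members and control 1 the highest for 18. The knockout libraries had no such common order. Knockout 1 was the lowest of them for 12 members and knockout 2 for 13, and knockout 3 was the highest for 15. The median nucleoporin, as log2 CPM over the control mean, was at 0.13, -0.14 and 0.03 in control and 0.35, 0.26 and 0.40 in knockout. Genes of proliferating cells followed the same order. The median of 15 of them was 0.34, -0.55 and 0.17 in control and 0.61, 0.31 and 0.66 in knockout, and 2 of the 15, Birc5 and Rrm2, were higher, though both calls were lost without any 1 library but control 1. Their summed level ranged from 401.2 to 780.6 CPM in control and from 682.4 to 946.3 CPM in knockout, so the groups overlapped. Markers of ileal enterocytes, the mature absorptive cells, were negative for all 7 genes with a median log2 fold change of -0.78, and 3 were lower. These were the bile acid transporter Slc10a2 (-1.35, adjusted p = 0.006562), the alkaline phosphatase Alpi (-0.91, adjusted p = 0.008266) and the fatty acid binding protein Fabp2 (-0.78, adjusted p = 0.01437). The first pair held without any 1 library, and Fabp2 lost its call when control 3 or knockout 3 was left out, reaching an adjusted p of 0.06927. The 7 enterocyte markers summed to between 19000 and 28820 CPM in control and between 15390 and 18960 CPM in knockout. These groups were barely separate, since control 1 at 19000 CPM nearly met knockout 2 at 18960 CPM. Of 8 stromal and endothelial markers 2 were higher, the collagens Col1a1 (0.79) and Col1a2 (0.58), both lost without knockout 3 (adjusted p up to 0.05994), and the list summed to 321.5 to 471.5 CPM in control and 448.3 to 513.7 CPM in knockout. Of 7 muscle markers 1 was higher, the skeletal actin Acta1, at 11.9-fold (log2 3.57, SE 0.680, adjusted p = 0.01927). Its call was lost without control 1, control 2 or knockout 2 (adjusted p up to 0.07232) and without the count filter. The other 6 muscle genes were negative, and the list summed to 762.5 to 1760 CPM in control and 798.2 to 1577 CPM in knockout. The part of these cell types, and of proliferation, in the nucleoporin differences was not tested. Crypt stem cell markers summed to 164.0 to 347.6 CPM in control and 210.9 to 448.8 CPM in knockout, so these groups overlapped too. Of these 6 genes, 4 had a positive and 2 a negative log2 fold change, and 0 were called. Olfm4, the gene of the driver, is 1 of the positive ones.

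**Figure D5:**
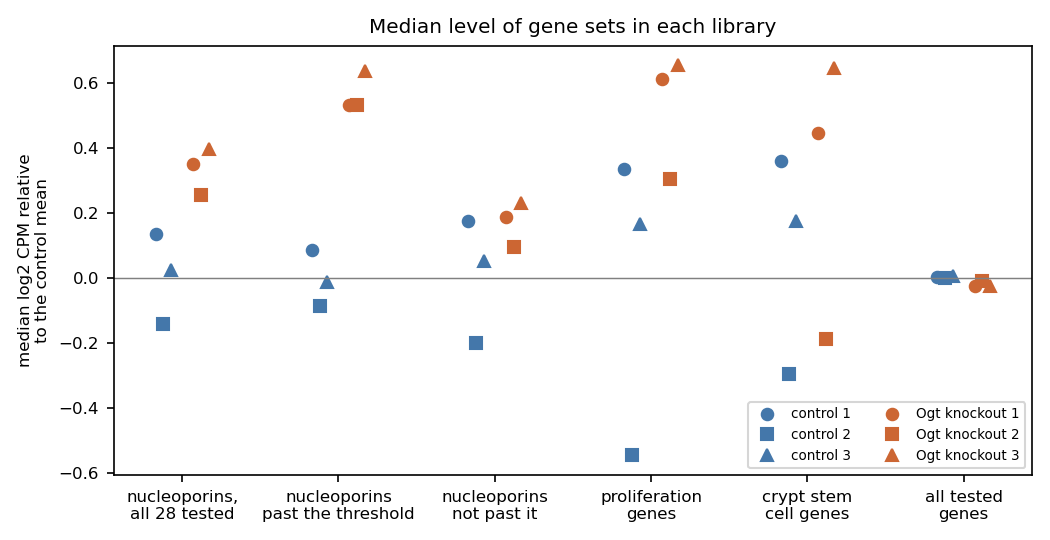
Median log2 CPM relative to the control mean, for all 28 tested nucleoporins, the 9 past the threshold, the 19 not past it, 15 proliferation genes, 6 crypt stem cell genes and all tested genes. Blue marks are control and orange marks Ogt knockout libraries. Control 2 is the lowest library of every set except all tested genes, and the 9 called nucleoporins are the set with the clearest gap, which the choice of genes fixes.

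Other genes of the pore and of nuclear transport were read from lists of 77 genes. Of the 76 tested, 18 were higher and 3 were lower, with a median log2 fold change of 0.20, beside 9.33% higher, 9.37% lower and a median of -0.05 over all tested genes. Leaving out 1 library gave between 6 higher (without knockout 3, where 3.87% of all genes were higher) and 26 higher (without control 1, where 13.6% were). Of 10 other pore proteins 4 were higher and 1 lower. Sec13, a Y complex subunit shared with the coat of vesicles leaving the endoplasmic reticulum, was at 108.7, 94.6 and 92.9 CPM in control and 183.1, 187.3 and 184.2 CPM in knockout (log2 0.91, SE 0.104, adjusted p = 0.002615). This gap was wide beside the spread, and it held without any 1 library. Gle1, which activates the helicase that strips exported mRNA, was higher by 0.78 on the log2 scale (SE 0.112, adjusted p = 0.004637). Mad1l1, a spindle checkpoint protein held at the pore by Tpr, had a log2 difference of 0.89 (SE 0.182, adjusted p = 0.01498), which was lost without knockout 2 (adjusted p = 0.05958). The membrane protein Tmem33 was higher as well (0.45), except without knockout 2 or knockout 3 (adjusted p up to 0.06927) and from FPKM. Mcm3ap, also called GANP, which couples transcription to export, fell by 0.49 (adjusted p = 0.02818), a call kept only without control 1 among the 6 fits that leave out a library. Seh1l, a propeller subunit of the Y complex, did not pass (0.24).

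Among 23 tested importins and exportins, the carriers that bind cargo, 6 were higher and 2 lower. Kpna4 fell from 91.6, 97.7 and 90.6 CPM to 65.2, 63.4 and 62.5 CPM (log2 -0.55, SE 0.088, adjusted p = 0.006364), and Kpna6 rose by 0.46 (adjusted p = 0.01513). Both are importin alpha genes, adaptors for the classical import signal, so members of 1 family moved in opposite directions. Kpna1, another of them, rose by 0.38 (adjusted p = 0.02186), while Kpnb1, the importin beta that carries them, fell by 0.49 (adjusted p = 0.02488). Of these 4 calls, the one for Kpna4 held without any 1 library. Kpna6 and Kpnb1 lost theirs without control 3, knockout 2 or knockout 3, and Kpna1 without any 1 library but control 1 (adjusted p up to 0.06365, 0.09928 and 0.07258). With library size alone or from FPKM, Kpnb1 was not called. The most abundant, Kpna2, had a log2 difference of 0.56 (adjusted p = 0.06971).

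Of 9 genes of the Ran cycle, which sets the direction of transport, 2 were higher. Ranbp1, a helper of RanGTP hydrolysis, rose by 0.75 on the log2 scale (SE 0.170, adjusted p = 0.02079), and Rcc1, the exchange factor on chromatin, rose by 0.58 (SE 0.160, adjusted p = 0.03903). The Ranbp1 call was lost without control 3, knockout 1 or knockout 3 (adjusted p up to 0.0797), and the Rcc1 call without any 1 library but control 1 (up to 0.1135). Nutf2, the importer of Ran, did not pass (1.06, adjusted p = 0.0678). Of 16 mRNA export genes 5 were higher. The THO complex subunits Thoc6 (0.96, adjusted p = 0.00398) and Thoc5 (0.79, adjusted p = 0.004851) and the TREX-2 subunit Pcid2 (0.75, adjusted p = 0.01083) led, and these 3 held without any 1 library. Thoc7, the most abundant, overlapped between groups (-0.07). Of 18 lamina and envelope genes 1 was higher. This was Banf1, which bridges chromatin and envelope (0.60, adjusted p = 0.02524), and it passed only without control 1 among the 6 fits that leave out a library. Syne2 (-0.43) and Sun1 (-0.42), linkers to the cytoskeleton, and Lmna (-0.09), the A-type lamin, did not pass. Lmna was the most abundant of this list in control (51.8 FPKM, Banf1 40.4) and Banf1 in knockout (64.7 FPKM, Lmna 55.6).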

How the data were processed

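RNA from ileal epithelial cells of 3 control and 3 Ogt knockout libraries was extracted with Trizol and made into libraries with a NEBNext Ultra kit, per the labels' protocols. The authors deposited estimated counts and FPKM for 22274 genes, per the file headers. The submitters' processing notes name the builds GRCm39 and mm39. The aligner, counter, annotation and strand setting were not given in the sources used here. Overlapping genes may therefore share reads.

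Estimated counts were rounded and tested with edgeR 4.0.16 in R 4.3.3 (filterByExpr minimum count 10, minimum total 15, TMM, robust quasi-likelihood, Benjamini-Hochberg over 14005 genes, threshold 0.05). The SE was taken from the F statistic. No pair of libraries agreed within sampling noise (mean chi-square per gene at least 20.3). The fit was tested on simulated data. It recovered 54 of 100 changes of 2-fold and 87 of 100 changes of 4-fold, with 14 false calls. In that run the false calls were a larger share of the calls than the threshold of 0.05. Changes under 2-fold, such as those of most called nucleoporins, were not simulated. With no change simulated it made 0 calls. DESeq2 1.42.0, limma 3.58.1 (voom, and log2(FPKM + 0.1), 0.01 or 1), other scalings and filters, a replicate block and each library left out were alternatives.

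Symbols came from GENCODE M21 by Ensembl ID, and promoter windows from RefSeq tables for GRCm38.p6. All 149 genes of the other lists matched by name. The text describes every member, with library values for members past the threshold, the most abundant of each place and any of few counts. Of each other transport list it names the 3 genes of smallest adjusted p and the most abundant. Of the genes this gives, 1 is not reported here. Nup43, Ranbp2, Nup42, Tmem33, Mcm3ap, Seh1l, Kpnb1, the cell markers and the length ratios were taken up after their values were seen. The members and lists were chosen with earlier results of these data known.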

Additional observations from a re-analysis of the deposited data

How the results depend on the processing

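Of 504 comparisons of a member with an alternative, 426 kept direction and side of the threshold, 30 lost the call, 20 gained it and 28 changed sign, each of the last for a member with no call. The count of 9 higher nucleoporins was 9 with DESeq2 size factors, voom, no filter and 1 CPM, 8 with upper quartile factors, 11 with DESeq2, 12 with library size alone and 9 or 10 from FPKM. In the first of these fits 9.84%, 9.53%, 7.01% and 10.1% of all genes were called higher, in the same order. The share was 9.52% with upper quartile factors, 11.8% with DESeq2 and 14.6% with library size alone. From FPKM it was 16% to 16.4% with the filter and 9.23% without, against 9.33% in the main fit. Without 1 library the count of higher nucleoporins ranged from 3 to 15 and that of higher transport genes from 6 to 26. The count of lower transport genes ranged from 1 to 5, and the median log2 fold change of nucleoporins from 0.249 to 0.513. Higher transport genes numbered 27 with library size alone. Lower transport genes numbered 1 with library size alone and 1 in each of the 4 FPKM fits. The nucleoporin median was 0.459 with library size alone, 0.453 with log2(FPKM + 0.1) with or without the filter, and 0.459 with log2(FPKM + 0.01). Library size alone shifts the median of all genes from -0.05 to 0.09 and log2(FPKM + 0.1) shifts it to 0.12. Of all calls 49.9% were higher by TMM, 70.4% with library size alone and 71.8% to 72.5% from FPKM. The cause of these differences between fits was not tested.

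With the replicate number as a block 11 nucleoporins were higher, 25 transport genes were higher and 5 lower, in a fit that called 12.3% of all genes higher and 11.9% lower. No label says that the numbers pair the libraries, and the correlations do not settle it. Correlations of same-numbered libraries were 0.274, 0.252 and 0.084, and each library correlated best with its own number. Those of libraries with different numbers ran from -0.274 to 0.068.

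Members with small changes took either sign. With library size alone Nup37 was at 0.051, Nup88 at 0.122 and Nup98 at 0.042. With log2(FPKM + 0.1), with or without the filter, they were at 0.110, 0.116 and 0.059, with log2(FPKM + 0.01) at 0.112, 0.117 and 0.059, and with log2(FPKM + 1) at 0.096, 0.110 and 0.054. Nup88 was at 0.002 with DESeq2 size factors and in the DESeq2 test. Without 1 library Nup214 ranged from -0.045 to 0.147, Nup37 from -0.194 to 0.107, Nup88 from -0.083 to 0.047, Nup98 from -0.134 to 0.039 and Pom121 from -0.074 to 0.181.

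Depth limits the rarest members: Nup62cl and Nupl1 had at most 5 counts in a library. With 3 libraries a group, a p that misses the threshold does not show that a transcript was unchanged.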
